A study of Mus musculus with 6 samples.

Results

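Ependymal ciliated cells are the epithelial cells that line the central canal of the spinal cord. They were chosen here by measured values: a cell was kept when at least 2 of the 5 genes Ccdc153, Tmem212, Dynlrb2, Foxj1 and Cfap126 were above 0. This gave 133 of 13614 cells (0.977%, 95% exact binomial interval 0.819 to 1.16%), and they are compared with the other 13481 cells. Of those other cells 12895 had at least 3 of 6 myeloid markers (Tyrobp, C1qa, C1qb, C1qc, Fcer1g and Ctss). A value given against the other cells is therefore mostly one against cells that hold myeloid genes, and not against the other cell types of the cord in equal parts. Because the values of the 5 genes chose the cells, those values are described and not tested.

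The study profiled single cells of mouse spinal cord in 6 libraries made with 10x Genomics 3′ chemistry. Its methods name the spinal cord as the tissue, while its results section speaks of the entire CNS. The tissue is called spinal cord here, as in the methods. A healthy control library came from WT mice and another from Nd6 mice, and EAE libraries came from WT (n = 2) and from Nd6 (n = 2). Nd6 mice carry the ND6-P25L point mutation in the mitochondrial gene mt-Nd6, which blocks reverse electron transport through complex I, and WT mice do not carry it. EAE, experimental autoimmune encephalomyelitis, is an inflammatory model of multiple sclerosis induced with a myelin peptide. EAE was induced in female mice aged 8 to 20 weeks and cords were taken 30 days after immunization, while healthy controls were of both sexes. All cords were perfused with the transcription inhibitors actinomycin D and triptolide before they were dissociated. The deposited table holds the cells of all libraries with 6 kinds of ending on the cell names, and no source used here links an ending to a library. The cells are therefore treated as 1 pooled sample, with no test and no comparison of genotype or EAE. Cells that share an ending are called a set, and the sets are lettered A to F from the largest to the smallest. Sets D and E together held 84 of the 133 ciliated cells, so means were also compared with other cells weighted to the sets of the ciliated cells (set-matched), a comparison chosen after seeing the data. It is given beside the lists and genes it bears on most. Among 13596 barcodes, 18 occurred in 2 sets, and no ciliated cell carried any of these.

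As background, ependymal cells carry tufts of motile cilia that move cerebrospinal fluid. The core of a motile cilium, the axoneme, is built of doublet microtubules. Dynein arms on the doublets provide the force, radial spokes and a central pair of microtubules set the beat, and intraflagellar transport carries the parts to the tip. The transcription factor Foxj1, with factors of the Rfx family, is known to switch on the genes of the motile axoneme, and Rfx factors bind the X-box.

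Of the 5 rule genes, Ccdc153 lies at chr9:44240676-44247306 on the plus strand, Tmem212 at chr3:27866066-27896368 on the minus strand, Dynlrb2 at chr8:116504974-116515915 on the plus strand, Foxj1 at chr11:116330704-116335399 on the minus strand and Cfap126 at chr1:171113918-171126967 on the plus strand (GRCm38, GENCODE, all protein coding). Promoter windows from RefSeq (GRCm38.p6), from 250 bases before to 50 bases after each gene's start, were matched by symbol for 4 of the 5, and Foxj1 had no entry. Windows are printed for Ccdc153 and Dynlrb2, which hold the X-box core GTTGCC, for Tmem212, which does not, and for Dynlrb1, the more widely expressed paralog of Dynlrb2. They are written 5′ to 3′ on the gene's strand, with the core in capitals.
Ccdc153, chr9:44240427-44240726, plus strand: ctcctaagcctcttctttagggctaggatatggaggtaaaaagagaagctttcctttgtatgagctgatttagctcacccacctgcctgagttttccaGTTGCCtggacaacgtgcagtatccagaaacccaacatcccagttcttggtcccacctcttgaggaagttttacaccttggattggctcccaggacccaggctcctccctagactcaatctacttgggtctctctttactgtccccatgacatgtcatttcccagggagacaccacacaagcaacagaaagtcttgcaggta
Dynlrb2, chr8:116504765-116505064, plus strand: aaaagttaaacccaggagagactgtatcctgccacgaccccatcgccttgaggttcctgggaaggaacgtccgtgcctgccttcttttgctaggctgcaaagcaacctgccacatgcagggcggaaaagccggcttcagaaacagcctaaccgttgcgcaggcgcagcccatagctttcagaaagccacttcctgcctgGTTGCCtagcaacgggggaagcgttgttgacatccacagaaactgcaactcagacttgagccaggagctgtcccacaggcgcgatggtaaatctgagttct
Tmem212, chr3:27896319-27896618, minus strand: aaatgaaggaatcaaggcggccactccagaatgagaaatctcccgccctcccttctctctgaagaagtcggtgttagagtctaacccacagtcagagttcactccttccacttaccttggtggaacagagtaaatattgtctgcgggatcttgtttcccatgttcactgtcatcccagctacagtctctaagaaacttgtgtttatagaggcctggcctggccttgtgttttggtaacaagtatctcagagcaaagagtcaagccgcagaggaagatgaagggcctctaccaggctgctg
Dynlrb1, chr2:155236283-155236582, plus strand: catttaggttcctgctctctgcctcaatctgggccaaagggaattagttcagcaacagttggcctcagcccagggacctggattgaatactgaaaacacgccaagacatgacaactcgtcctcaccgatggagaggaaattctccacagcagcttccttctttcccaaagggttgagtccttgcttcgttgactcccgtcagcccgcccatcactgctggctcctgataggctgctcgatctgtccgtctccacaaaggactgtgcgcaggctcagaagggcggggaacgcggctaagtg
The core started 152 bases before the RefSeq start of Ccdc153 and 51 bases before that of Dynlrb2. It was in none of the 3 windows of Cfap126, which are not printed, nor in a further window given for Dynlrb1. On either strand it was found in 52 of 116 genes (44.8%) with a window from the lists of dynein arms, dynein arm assembly, spokes, doublets and intraflagellar transport, against 3821 of 27025 genes (14.1%) with a window and 1911 of the 12767 such genes in the deposited table. Counted per window, this was 42.9% of 126 windows against 12.5% of 32851. It was in 23 of 38 doublet genes and in 7 of 28 dynein arm genes. The same letters read backwards without complement, CCGTTG, were in 15.5% of the cilium genes and 5.90% of all genes, and the forkhead motif GTAAACA was in 3.45% and 4.05%. The mean G and C content of the windows was 55.2% for the cilium genes, 53.8% for all and 59.4% for the genes of the deposited table. These motifs were chosen after others had been counted, a match is not a bound site, and its absence says only that these letters are not in this window.

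The rule genes were not detected equally. Ccdc153, a coiled-coil protein of the axoneme, had a value in 117 of the 133 cells (88.0%), with a mean deposited value of 2.54 and a highest value of 9. Dynlrb2, a dynein light chain, had a value in 100 cells (75.2%, mean 1.44), Cfap126, a protein that positions basal bodies, in 91 (68.4%, mean 1.03) and Foxj1 in 79 (59.4%, mean 0.872). Tmem212, a membrane protein, was the sparsest, in 28 cells (21.1%, mean 0.226). Among the other cells each gene had a value in 0.445 to 0.668% of cells. Dynlrb1 had a value in 27.1% of ciliated cells and 12.9% of the other cells.

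Each rule gene was then read in cells chosen by the other 4, so that its own value did not enter the choice. Ccdc153 had a value in 89 of 105 such cells (84.8%, 95% exact interval 76.4 to 91.0%) and Dynlrb2 in 83 of 116 (71.6%, 62.4 to 79.5%). Cfap126 had a value in 79 of 121 (65.3%, 56.1 to 73.7%) and Foxj1 in 65 of 119 (54.6%, 45.2 to 63.8%). Tmem212 had a value in 27 of 132 (20.5%, 13.9 to 28.3%), so most cells chosen without it lacked a value for it. These intervals, like all intervals given here, cover counting error over cells and no difference between mice.

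At the border of the rule, 36 cells had exactly 2 of the genes and 351 had exactly 1. The cells with 2 had Mt3, a brain metallothionein, in 100% and Rsph1, a radial spoke protein, in 58.3%, and they had Tyrobp, a myeloid signalling adaptor, in 22.2%. Among the cells with 1 gene these shares were 23.4%, 2.28% and 90.9%. The 113 genes of the 4 motile cilium lists (dynein arms, their assembly, spokes and central pair, doublets and other axoneme), none of them a rule gene, gave a median of 13 genes per cell in the cells with 2 rule genes, 20 in those with 3, 22.5 in those with 4 and 26 in those with 5. The median was 0 in cells with 1 and in cells with 0. The cells with 2 also had fewer genes detected of any kind (median 588.5) than those with 4 (808.5).

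**Figure D1:**
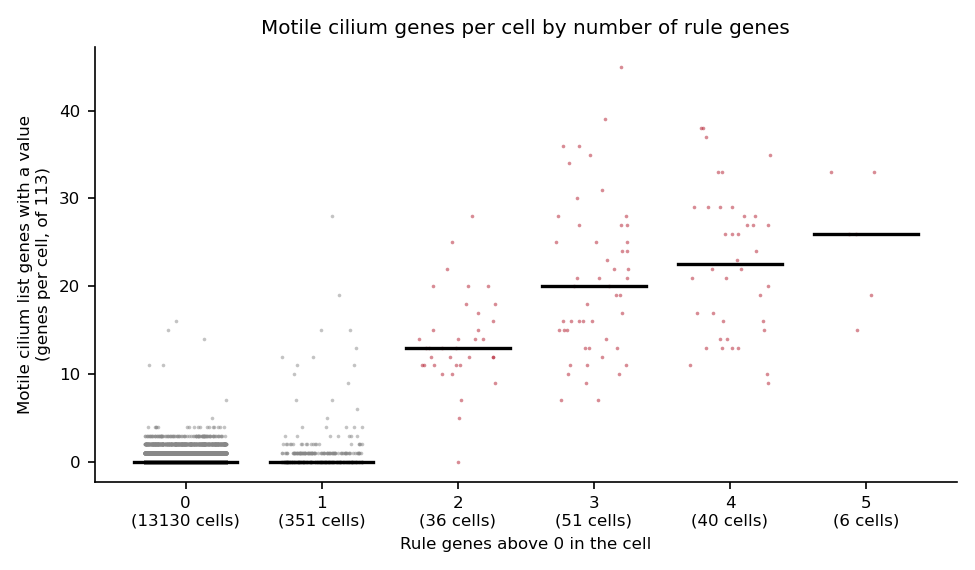
Number of motile cilium list genes with a value (of 113, vertical axis) in each cell, by how many of the 5 rule genes were above 0 in that cell (horizontal axis). Each point is a cell, red for the ciliated cells and grey for the others, and the black bar is the median; the median is 0 for 0 and 1 rule genes and 13, 20, 22.5 and 26 for 2 to 5.

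Over all 133 ciliated cells the number of motile cilium genes ran from 0 to 45, with a median of 18 and an interquartile range of 13 to 26, as the plot of motile cilium genes per cell shows. At least 10 were present in 125 cells and at least 3 in 132, which left 1 cell, in set B, with 0. In 117 astrocytes, 257 oligodendrocytes and 702 endothelial cells, each chosen by at least 3 of their own markers, the highest count in any cell was 3, 3 and 4. The myeloid gene C1qa had a value in 90.6, 73.9 and 80.9% of these 3 groups, against 34.6% of ciliated cells. How far the groups hold mixed or myeloid cells was not tested, so their values may not be those of pure cell types. When all cells were clustered again, with settings that the study states for another of its datasets and without batch correction, 132 of the 133 fell in 1 of 12 clusters, which held 160 cells. Its other 28 cells, 18 with 1 rule gene and 10 with 0, had a median of 10.5 motile cilium genes at a median total of 844, against 1156 in the ciliated cells.

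Genes of every part of the axoneme were found at higher levels in these cells than in the others. Of 174 genes of the 7 cilium lists that are in the table, 148 had a mean at least 2-fold that of the other cells, where 27.3% of all 18788 genes with a value in another cell did so. Among genes with a value in at least 10% of ciliated cells, 79 of 81 cilium genes and 61.4% of all 1801 genes passed the same fold, and 79 of the cilium genes also did so set-matched. That second count was taken over genes that were kept through the ciliated cells and is given as a description. The ratio of means is written as a fold throughout.

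Of the radial spoke and central pair genes, 21 of 22 were at 2-fold or more, and the median ratio of the list was 61.3. Rsph1, a protein of the spoke head, was the most abundant of them, with a mean of 1.80 in ciliated cells, where 94 had a value (70.7%), and a value in 55 of the other cells (0.408%). Its mean in the ciliated cells of sets A to F was 1.42, 1.18, 2.50, 2.61, 1.56 and 1.75, and in the other cells of every set it was at most 0.0130. The ciliated cells of each set therefore stood well above the rest of their set, with set D highest and set B lowest. Nme5, a spoke-associated kinase-like protein, had a value in 39.8% and Rsph4a, also of the spoke head, in 36.8%. Spag16 and Spef2, proteins of the central pair, each had a value in 24.1%.

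The doublet and other axoneme list had the highest level of the cilium lists, with a summed mean of 16.01 per ciliated cell against 0.243 per other cell. Of its 47 genes 46 were at 2-fold or more. The remaining gene, Cfap58, had a value in 9 ciliated cells and in 0 other cells, so it has no ratio. Fam183b had a value in 105 ciliated cells (78.9%, mean 1.86), and 73 of the other cells had one. Enkur, an axonemal protein that binds calmodulin, had a value in 54.1% and Pifo, a protein of the cilium base, in 47.4%. The locus 1700007K13Rik had a value in 57.9%. Tppp3, a protein that promotes tubulin polymerisation, had a lower ratio, at 9.99-fold, and a value in 26.5% of oligodendrocytes.

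Of the axonemal dynein arm and regulator genes, 31 of 33 were at 2-fold or more, with a summed mean of 4.86 against 0.0887. Iqcg, of the dynein regulatory complex, had a value in 38.3% of ciliated cells and Dnali1, an inner arm light intermediate chain, in 33.8%. Ccdc39, a ruler of the repeats along each doublet, had a value in 30.8%. Each had a value in under 0.5% of the other cells. The long heavy chains were sparser, and Dnah6 had a value in 13.5%. Reads of the near-identical Dnah7a and Dnah7b may have been split or lost in counting, so neither is described. Of the dynein arm assembly factors 10 of 11 were at 2-fold or more, but Pih1d2 (19.5%) and Ccdc103 (12.8%) alone had a value in at least 10% of the cells.

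Intraflagellar transport genes, which cells with other kinds of cilia also use, had lower ratios. Of 30 genes, 28 were at 2-fold or more (27 after scaling each cell to 10000), with a median ratio of 11.7, and the list was at 4.40 in ciliated cells and 0.445 in the others. Ift20, which links the Golgi to the cilium, had a value in 37.6% of ciliated cells and 7.04% of others (5.98-fold). Ift74, a tubulin-binding part of the complex, had one in 33.1% and 1.57% (26.8-fold).

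The tubulin list differed among its members, with 4 of 18 genes at 2-fold or more (5 set-matched), a smaller share than the 27.3% of all genes. Tuba1a was 8.40-fold higher, with a mean of 1.92 against 0.229, and Tubb4b, a beta-tubulin known from motile cilia, was 13.8-fold higher (0.812 against 0.0587). Tubb5, a general beta-tubulin, was lower, with a mean of 0.0752 against 0.276, in all 6 sets, and Stmn1, which destabilises microtubules, was at 0.263 against 0.381. Tubulin genes are close in sequence, and how reads between them were assigned bears on these values.

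Of the 13 ciliogenesis regulators with a value in any cell, 8 were at 2-fold or more (9 set-matched), where 27.3% of all genes were. All were at low levels, and only 1 had a value in at least 10% of ciliated cells. Rfx4 had a value in 14 ciliated cells (10.5%) and 0.326% of others, Rfx3 in 11 (8.27%) and Rfx2 in 8 (6.02%). Myb, known from the onset of multiciliation, had a value in 10 cells (7.52%). Deup1, which amplifies centrioles while cilia form, was at 0 in all 133 ciliated cells and had a value in 0.0297% of others. Of 9 proliferation genes, 6 were at 0 in the ciliated cells, among them Top2a and Cdk1, and Mki67 had a value in 1 cell. Each of the 9 had a value in at most 2.78% of other cells, and over all genes 7129 of 18792 were at 0 in the ciliated cells.

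**Figure D2:**
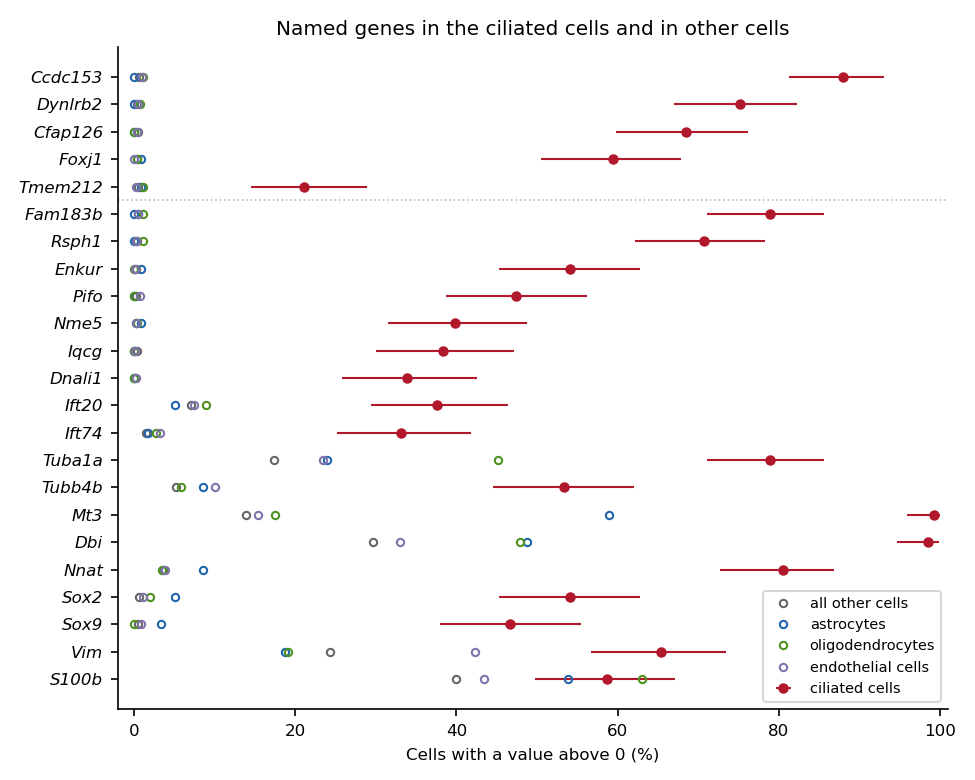
Share of cells with a value above 0 (horizontal axis, %) for the 5 rule genes, above the dotted line, and for 18 genes of the cilium and ependymal lists. Filled red points are the 133 ciliated cells with 95% exact binomial intervals, and open points are all other cells, astrocytes, oligodendrocytes and endothelial cells; Fam183b and Rsph1 were in 78.9% and 70.7% of ciliated cells and in under 1.2% of each other group, while the S100b share (58.6%) lay between those of astrocytes and oligodendrocytes.

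The 30 genes with the largest ratios (268 to 710) among those in at least 10% of ciliated cells held 2 rule genes, 12 genes of the cilium lists, the ependymal gene Fam216b (59.4% of ciliated cells) and 15 genes of no list. Dmkn, a secreted protein known from skin, led the unlisted genes in level, with a value in 56 ciliated cells (42.1%) and 20 others. Fam81b had a value in 35 ciliated cells and 11 others, 1700001L19Rik in 40 and 17, and 1700024G13Rik in 38 and 14. Fam92b, a protein of the cilium base, had a value in 19 ciliated cells and 3 others, so its ratio rests on few counts. The predicted gene Gm6842 had a value in 22 ciliated cells (16.5%) and was listed at 0 in every other cell.

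Some of the highest levels were those of metal-binding and ependymal genes. Mt3 had a value in 132 of 133 cells with a mean of 19.2, against 0.207 in the others and 1.80 in astrocytes, the cell type in which it is best known. By set its mean in ciliated cells was 17.4, 15.8, 14.8, 21.5, 20.6 and 12.8 from A to F and at most 0.382 in the other cells of any set. Every set had it high, and D and E were the highest. Dbi, an acyl-CoA-binding protein, was at 16.1 against 0.433 (37.1-fold). Mt1 and Mt2, the inducible metallothioneins, were at 11.7 against 0.708 and at 3.02 against 0.0975.

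Of the 34 ependymal surface, junction and secreted genes 20 were at 2-fold or more (21 set-matched), where 27.3% of all genes were. Among those with a value in at least 10% of ciliated cells 15 of 19 passed, against 61.4% of all such genes. The list reached 47.2 per ciliated cell against 4.35 per other cell and 14.6 per astrocyte. Nnat, a small membrane protein, was at 2.71 against 0.0401, and its means by set, A to F, were 4.11, 2.32, 3.75, 2.14, 2.13 and 9.50, the last over 4 cells. Sox2 and Sox9, transcription factors of neural stem cells and glia, had a value in 54.1% and 46.6% of ciliated cells and in 5.13% and 3.42% of astrocytes. The astrocytes, chosen by markers and high in myeloid genes, had a median of 458 genes per cell against 757. Vim, the intermediate filament vimentin, was at 1.55 against 0.318 (4.87-fold, and 8.07-fold set-matched). S100b, often used as an ependymal and astrocyte marker, was at 1.20 against 1.11, and the direction turned set-matched (0.825-fold), so it did not set these cells apart. Prom1 was at 0 in all of them, and Cd9, a tetraspanin also found in myeloid cells, was lower (0.241 against 1.18).

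The label was checked against genes of other cell types. Of the choroid plexus list, Folr1 had a value in 2 ciliated cells and Kcnj13 in 0, with 0.0519% and 0.0668% of other cells. Calml4, an apical protein not limited to that epithelium, had one in 49 ciliated cells (36.8%). Only 4 of the 11 genes of this list were in the deposited table. The defining markers Ttr, Kl and Clic6 were not among them and could not be read. Pkd2l1, Pkd1l2, Gad1 and Gad2, which define the neurons that contact cerebrospinal fluid, were at 0 in all 133 cells, as were 4 other genes of the 11 in the neuronal list. Pkd2l1 had a value in 0.171% of other cells, and Pkd1l2, Gad1 and Gad2 in 0.0890 to 0.104%. At such shares 133 cells are too few for a 0 to check the label. Over all genes 7129 of 18792 were at 0 in the ciliated cells. Among the remaining neuronal genes, Stmn2, a tubulin-binding protein of growing axons, had a value in 10 ciliated cells (7.52%) and 1.28% of other cells. Nefl, a neurofilament, had one in 6 (4.51%) and 2.35%, and Snap25, of the synapse, in 1 ciliated cell. The list summed to 0.143 against 0.0722, and 87.2% of ciliated cells and 93.5% of other cells had none of it. The 18 astrocyte genes summed to 0.932 in ciliated cells, 0.669 in all other cells and 13.3 in astrocytes. Aqp4, the astrocyte water channel, had a value in 8 ciliated cells (6.02%) and in 2.65% of other cells.

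Genes of abundant cell types were present at lower levels than elsewhere. All 12 myeloid genes were at 0.5 or less of their mean in other cells, pooled or set-matched, where 39.3% of the 1070 genes with a value in at least 10% of other cells were so, and the list summed to 6.24 against 37.5. It summed to 26.6 in astrocytes, 21.5 in oligodendrocytes and 26.4 in endothelial cells. Tyrobp had a value in 26.3% of ciliated cells, but in 76.1%, 66.5% and 73.1% of those 3 types, at median totals of 1156, 855, 1117 and 1124. The share in ciliated cells was below that in each of these types, which should also lack the gene. At least 3 of 6 myeloid markers were present in 40 ciliated cells, and 32 had none of the 12 genes. The part of free RNA or of doublets in these values was not tested. Mbp, the main myelin protein transcript, was at 4.94 against 11.6. For other types, at least 3 markers were present in 3 ciliated cells (astrocyte), 2 (oligodendrocyte) and 1 (endothelial).

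**Figure D3:**
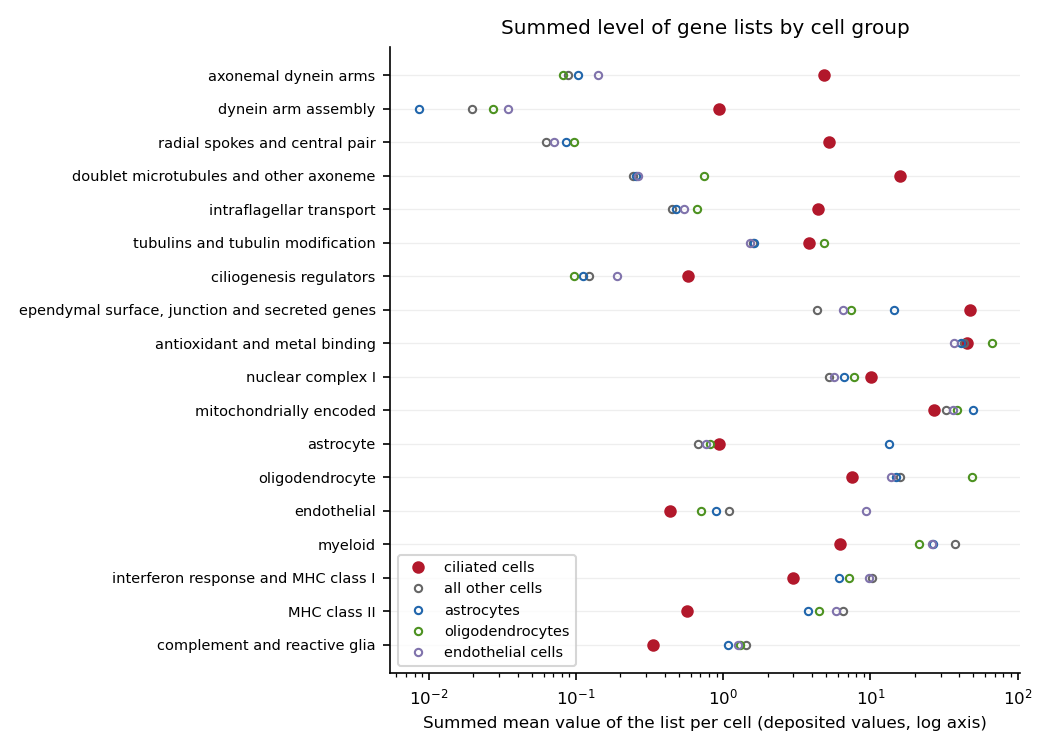
Summed mean deposited value per cell (horizontal log axis) of 18 gene lists in the 133 ciliated cells (filled red) and in all other cells, astrocytes, oligodendrocytes and endothelial cells (open points). For each cilium list other than tubulins the ciliated cells lie to the right of every other group, and for the myeloid (6.24 against 37.5 in all other cells) and MHC class II (0.564 against 6.49) lists they lie to the left of every other group.

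Antigen presentation genes were low in ciliated cells, while the interferon genes differed among themselves. B2m, the light chain of MHC class I, was at 0.541 against 4.33 in other cells and 2.58 in astrocytes, and the class I heavy chain H2-D1 was at 0.233 against 2.18 (1.24 set-matched). Of 25 interferon and class I genes 1 was at 2-fold or more, the antiviral membrane protein Ifitm3 (1.47 against 0.460, or 0.296 set-matched, in 70.7% of ciliated cells), and 19 were at 0.5 or less (15 set-matched), where 47% of all genes were. Of the 9 with a value in at least 10% of other cells, 8 were at 0.5 or less. Set-matched, 8696 of all 18792 genes were at 0.5 or less. Of the 25 genes 5 were then above 1 and 20 below. Besides Ifitm3, those above 1 included Irf9 (1.52-fold) and Irf1 (1.16-fold), each with a value in 6.02% of ciliated cells. All 7 MHC class II genes were at 0.5 or less (6 set-matched), with Cd74, the invariant chain, at 0.278 against 3.16 pooled and 1.46 set-matched. Of the 13 complement and reactive glia genes 10 were at 0.5 or less, most at low levels. In the ciliated cells 4 of the 13 were at 0, where 7129 of all 18792 genes were. Only 2 had a value in at least 10% of other cells, and both were at 0.5 or less. C3, the central complement protein, had a value in 2 ciliated cells, and the acute-phase gene Serpina3n in 0. These genes are abundant in myeloid cells, whose own markers were also low here, and the part of those cells in the values was not tested.

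B2m and the other inflammatory genes also varied between sets. B2m had a value in 8 of 19, 15 of 22, 1 of 4, 9 of 36, 1 of 48 and 0 of 4 ciliated cells in sets A to F. Its mean in the other cells of the sets was 4.64, 5.40, 4.06, 2.20, 2.03 and 4.56. Over all sets its share of ciliated cells was 25.6%, and it was 38.8% without set E and 10.8% without the 40 cells with at least 3 myeloid markers. Set B had the highest mean in both kinds of cell and set E the lowest among the other cells. The interferon and class I list as a whole was at 3.21, 6.95, 2.75, 2.17, 1.81 and 1.25 in ciliated cells and at 10.9, 13.8, 9.42, 3.72, 3.56 and 10.2 in the others. Cd74 had a value in 10 and 9 ciliated cells of sets A and B, in 2 of set F and in 0 of sets C, D and E. The myeloid list in ciliated cells was at 6.95, 9.59, 5.75, 7.64, 3.62 and 3.75, and its part in these differences was not tested. Ifitm3 was highest in set B too, at 2.68 in ciliated cells against 0.75 to 1.28 in the other sets, and Vim was at 3.14 there against 0.50 to 1.68.

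Complex I, the enzyme that the Nd6 mutation alters, was read through its nuclear and mitochondrial genes. Of 36 nuclear genes listed as its subunits 34 had a higher mean in ciliated cells and 15 were at 2-fold or more (14 set-matched), while 2 were lower. The 36 include Ndufa4 (0.368 against 0.288), whose protein is now assigned to complex IV. Over all genes 42.4% had a higher mean and 27.3% were at 2-fold or more. Among genes with a value in at least 10% of ciliated cells, however, 15 of 30 subunit genes were at 2-fold or more, a smaller share than the 61.4% of all such genes. The list summed to 10.1 against 5.21 (5.28 set-matched) and to 6.61 in astrocytes, and it was higher in the ciliated cells of all 6 sets. Scaling each value to 10000 per cell moved the median ratio over all genes by -0.21 on the log2 scale. It left 30 of the 36 above 1 and 11 at 2-fold or more. Over all 18792 genes 7416 were above 1 and 4558 at 2-fold or more after scaling. Ndufa12 was 4.50-fold, Ndufb2 4.45-fold and Ndufc1 4.39-fold higher, and these are accessory subunits of the membrane and matrix arms. Ndufs4, an accessory subunit, was at 0.0977 against 0.0895.

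The 13 mitochondrially encoded genes were lower in sum, at 27.2 per ciliated cell, 32.5 per other cell (40.3 set-matched) and 50 per astrocyte. Pooled, 6 of them were below the other cells, and set-matched 11 were. None was at 2-fold or more and none at 0.5 or less either way. mt-Nd1, mt-Nd2 and mt-Nd4 were at 0.792, 0.816 and 0.771 of the mean in other cells. mt-Nd6, the mutated gene, was 1.98-fold higher pooled (0.361 against 0.182) but 0.892-fold set-matched (against 0.404), so the pooled direction does not hold within sets. Its level says nothing of the mutation. It had a value in 1, 3, 0, 14, 15 and 1 ciliated cells of sets A to F. Its mean in the other cells of the sets was 0.0876, 0.0894, 0.0807, 0.604, 0.572 and 0.163, highest in sets D and E, and it was lower in the ciliated cells than in the rest in 4 of the 6 sets.

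mt-Cytb, the cytochrome b of complex III, was at 4.53, 3.45, 2.50, 9.50, 9.73 and 11.0 in ciliated cells and at 8.36, 9.24, 7.93, 13.8, 12.97 and 13.4 in the other cells. The ciliated cells were below the rest of their set in each of the 6 sets. The whole mitochondrial list followed, at 14.1, 13.1, 14.3, 32.6, 35.5 and 31.8 in ciliated cells against 27.5, 30.3, 25.7, 46.9, 45.7 and 44.5.

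Of the 12 genes that supply ATP 5 were at 2-fold or more (4 set-matched), where 27.3% of all genes were. Among the 8 with a value in at least 10% of ciliated cells 2 passed, against 61.4% of all such genes. Ckb, the brain creatine kinase, was at 1.74 against 0.591 and Ak1, an adenylate kinase, at 0.113 against 0.0240. Ldha was lower in all 6 sets (0.113 against 0.270 pooled), and Pkm was at 0.286 against 0.447. Gapdh, of glycolysis, was at 1.13 against 1.16, a direction that turned set-matched (1.19-fold). Of the 20 antioxidant and metal-binding genes 9 were at 2-fold or more, where 27.3% of all genes were. After scaling 7 of the 20 were, where 4558 of all 18792 genes were. Of the 17 with a value in at least 10% of ciliated cells 9 passed, a smaller share than the 61.4% of all such genes. Prdx6, a peroxiredoxin, was at 1.17 against 0.131, Gsta4, a glutathione transferase, at 0.481 against 0.0302, and Gpx4, which reduces lipid peroxides, at 0.850 against 0.252. The ferritin genes were lower, with Fth1 at 23.6 against 35.1 and Ftl1 at 1.55 against 4.03, and so were Hmox1 (0.0150 against 0.0836, or 0.0521 set-matched) and Selenop (0.165 against 0.830, or 1.37 set-matched).

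The ciliated cells were spread unevenly over the sets. They numbered 19 of 4633 cells in set A (0.410%, 95% exact interval 0.247 to 0.640%), 22 of 3995 in B (0.551%, 0.345 to 0.833%), 4 of 1664 in C (0.240%, 0.0655 to 0.614%), 36 of 1309 in D (2.75%, 1.93 to 3.79%), 48 of 1204 in E (3.99%, 2.95 to 5.25%) and 4 of 809 in F (0.494%, 0.135 to 1.26%). The intervals of D and E overlapped and lay above those of the other 4. Cells with exactly 1 rule gene numbered 213, 54, 13, 30, 29 and 12. A share of a dissociated cord depends on every other cell type in the set, so these shares are not numbers of ependymal cells per cord.

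The cilium genes themselves varied less between sets. The median number of motile cilium genes per ciliated cell was 15, 15.5, 19.5, 19.5, 19.5 and 23.5 in sets A to F, at median totals of 1196, 1135, 975.5, 1165.5, 1197 and 1242. The doublet list was at 12.3, 13.7, 18.5, 17.3, 16.9 and 21.5. Sets C and F rest on 4 cells each.

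**Figure D4:**
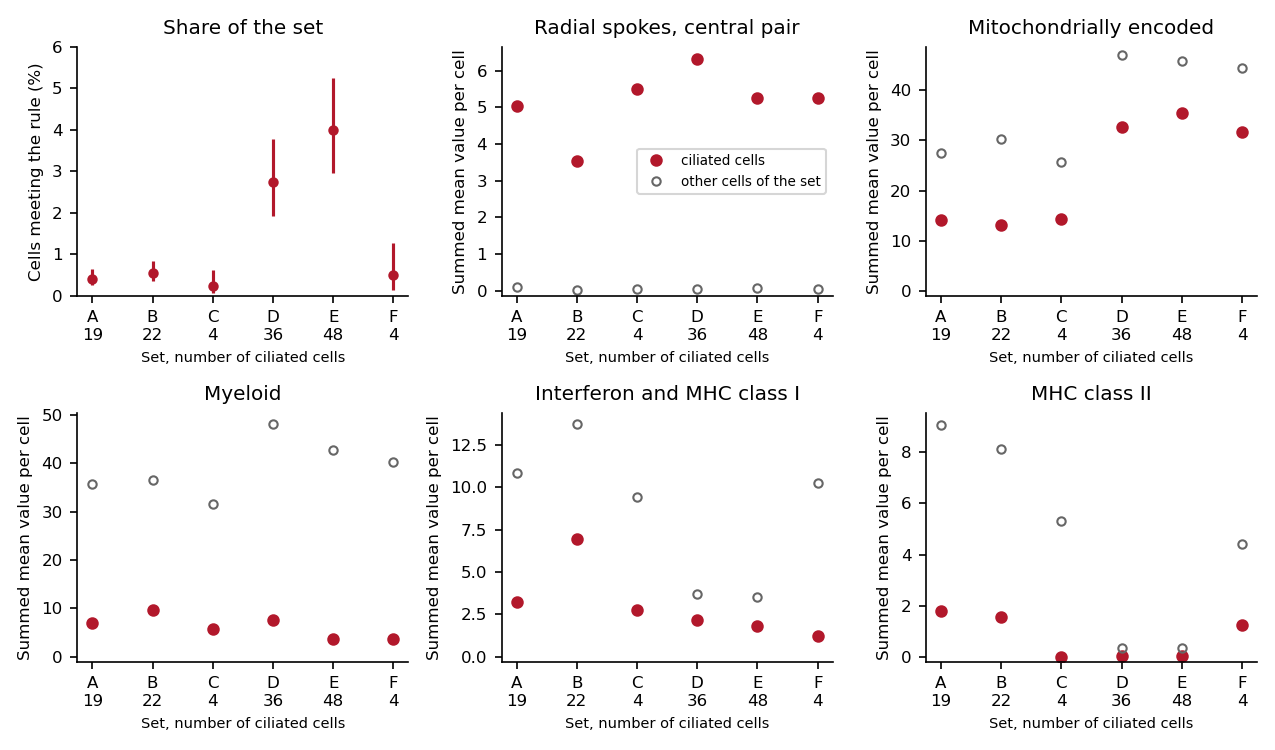
Values by set (horizontal axis, with the number of ciliated cells under each letter). The first panel gives the share of the set's cells that met the rule with 95% exact binomial intervals, from 0.240% in C to 3.99% in E, and the others give the summed mean value per cell of 5 lists in ciliated cells (filled red) and in the other cells of the set (open grey); the radial spoke values of the ciliated cells (3.55 to 6.33) lie far above the others in each set, and the mitochondrial and myeloid values lie below them.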

How the data were processed

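Spinal cord cells of 6 libraries (WT and Nd6, healthy control or EAE) were measured with 10x Genomics 3′ single-cell RNA sequencing. According to the study's methods and the submitters' notes, the authors aligned reads to GRCm38 (Ensembl annotation) with Cell Ranger 7.1.0, including intronic reads, and used Seurat 4.3.0.1. They state limits on genes, UMIs and the mitochondrial and ribosomal shares, and 12556 of the 13614 deposited cells (128 of the ciliated cells) meet these on the deposited values. The deposited table gives 1 score for each of 18792 genes in 13614 cells. These scores are whole numbers, but cell totals lie between 687 and 1578 (median 962), narrower than raw UMI totals usually are, so they were not taken as counts. How they were made, the depth behind them and any removal of doublets are not given in the sources used here, so no count model and no doublet caller was run.

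Cells were kept when at least 2 of 5 marker genes were above 0. The members and gene lists were chosen with earlier results of these data known. Means of the deposited values were compared as ratios, with 2-fold or more as the limit, over genes with a value in at least 10% of ciliated cells and over all genes. Shares have exact (Clopper-Pearson) binomial intervals at 95%, for counting error only. Sets of cells that share a name ending could not be linked to libraries, so no p-value is given. Named were the rule genes, the 30 largest ratios, and per list up to 8 genes by mean and up to 4 by ratio, with defining genes of other cell types; Xist and Y-linked genes were left out. Cd9, Cfap58, Deup1, Dnah6, Dynlrb1, Gm6842, Hmox1, Ndufa4, Ndufs4, Prom1, Selenop, Serpina3n, Tppp3 and the genes of the closing section were named after their values were seen. Cells were clustered with Seurat 5.3.0 in R 4.3.3 (5000 variable features, 50 components, resolution 0.3, as stated for another dataset of the study; for these cells the study chose features and clusters with ClustAssess), and other steps used Python 3.11.15 with scipy 1.17.1. The ratio step was tested on simulated counts for the better-detected genes only. It does not bear on ratios that rest on few cells, as those of most cilium genes do. Alternatives changed the rule, the cells, the scale, the filter and the ratio.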

Additional observations from a re-analysis of the deposited data

How the results depend on the processing

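No paired analysis was possible because no cell could be linked to a library and no test was made. Of 92 values recomputed under alternatives, 77 stayed within 1.5 times (counts) or within the interval of the value given (shares), and 15 moved beyond. These values are counts and shares, and a change of direction was not scored among them. The share of ciliated cells became 0.713% with at least 3 of the 5 genes, 0.771% without Ccdc153 in the rule, 1.18% by the rebuilt cluster and 0.685% without the 40 cells that hold at least 3 myeloid markers, an alternative chosen after seeing the data. It ran from 0.685 to 1.27% when each set was left out in turn, lowest without set E and highest without set A. Without those 40 cells Tyrobp had a value in 9.68% and B2m in 10.8% of ciliated cells, against 26.3% and 25.6%. B2m ran from 17.1% (without set B) to 38.8% (without set E) over the sets left out, a shift of over 1.5 times for set E. Lowering the filter from 10% to 5% of ciliated cells raised the genes at 2-fold or more from 1105 to 2309 and the cilium genes from 79 to 121; with 1 cell as the filter they were 5135 and 148, since more genes were tested. Weighting the other cells to the sets of the ciliated cells, also chosen after seeing the data, gave 1050 and 79, and turned the direction of mt-Nd6 (from 1.98 to 0.892-fold), S100b (from 1.08 to 0.825-fold) and Gapdh (from 0.970 to 1.19-fold). The depth behind the deposited values is unknown, and 133 cells limit what a share of a sparse gene can show.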

Other observations

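Genes of position along and across the spinal cord were also found in the ciliated cells; they belong to no fixed list and were chosen after their values were seen. At least 1 of 27 Hox genes, which mark levels along the body axis, had a value in 102 of 133 ciliated cells (76.7%, 95% exact interval 68.6 to 83.6%), at a median of 757 genes per cell. The share was 12.8% of astrocytes, 9.34% of oligodendrocytes and 11.4% of endothelial cells, at medians of 458, 640 and 681 genes per cell. In sets A to F it was found in 12 of 19, 16 of 22, 3 of 4, 29 of 36, 39 of 48 and 3 of 4 ciliated cells. Hoxa7 had a value in 33 ciliated cells (24.8%) and 0.809% of other cells, and Hoxb8 in 31 (23.3%) and 0.705%. The more caudal Hoxd10 had one in 8 (6.02%).

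Among genes that pattern the embryonic cord from its floor to its roof, Nkx6-1 had a value in 27 ciliated cells (20.3%) and 28 of the other cells, Irx5 in 16 and 8, and Pax6 in 13 and 19. Meis2, read beside them, had a value in 25 and 55. Genes of the roof side had a value in fewer ciliated cells, with Msx1 in 4 and 14 others, Zic1 in 1 and 66 and Zic2 in 0 and 36. By means, however, Msx1 was 29.0-fold higher in the ciliated cells and Zic1 1.49-fold. Where the cells lay between floor and roof was not tested. Apoe, a lipid carrier with a value in 55.6% of ciliated and 89.2% of other cells, was at 20.6, 8.77, 16.5, 0.472, 0.542 and 9.75 in the ciliated cells of sets A to F and at 94.0, 28.8, 80.9, 1.52, 1.18 and 46.8 in the other cells of those sets.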
